A study of Mus musculus with 12 samples.

Results

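The regions described here are 2753 intervals of 10 kb in mouse embryonic stem cells (ESCs), out of 54825 such bins in all, that carried a value for acetylation of histone H3 at lysine 27 (H3K27ac) before induction of a KLF knockout (0 h), carried none at 24 h, and overlapped no KLF4 peak of induced pluripotent stem cells (iPSCs). They were chosen by these measured values: a 0 h H3K27ac value in the deposited list, no 24 h value, and no overlap of 1 bp or more with a KLF4 peak. Among the 16635 bins without a KLF4 peak that had a 0 h value, 16.5% fell under this rule, and among all bins with a 0 h value, with or without KLF4, 15.2% had no 24 h value. These shares are a description, since the rule used them. The bins are called 0 h-only bins below.

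The H3K27ac libraries came from the V6.5 mouse ESC line, with 2 libraries after 24 h of doxycycline and 2 at 0 h. All of these ESCs, the 0 h cells included, carried a lentiviral vector (c3GIC9) with a doxycycline-inducible Cas9, GFP, puromycin resistance and guide RNAs, which the labels describe as aimed at KLF4 alone or at KLF2, KLF4 and KLF5 in tandem. The 24 h titles carry both the name TKO and the words KLF4 KO, so the targeted genes are not settled by the labels. The cells were puromycin-selected, hand-picked clonal populations on irradiated feeder cells. The labels give 2i medium, which keeps mouse stem cells naive with a pair of kinase inhibitors, for every sample. iPSCs contributed 2 KLF4 and 2 H3K27ac libraries, and there were 4 input libraries. The A and B samples are biological replicates per the design text, but the authors deposited 1 list for each ChIP group. No spread between replicates can therefore be given, and the depth of sequencing is unknown. Effects of the targeted genes, of doxycycline, of the Cas9 and of the clones chosen cannot be told apart with these groups.

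H3K27ac is placed by acetyltransferases such as p300 and CBP at active enhancers and promoters, and a region can gain or lose it within hours. KLF4 is a zinc-finger factor of the pluripotency network that binds GC-rich sites at enhancers and promoters, where KLF2 and KLF5 can bind as well. A KLF4 peak here is one measured in iPSCs, so a bin without one was not shown to be free of KLF4 in ESCs.

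Where a 0 h-only bin holds the start of a protein-coding gene, the promoter can be read from RefSeq (GRCm38.p6, the primary assembly of mm10). Shown here are the 4 such promoters with the highest 0 h values, 250 bases before to 50 bases after the start, with matches in capitals to a KLF motif (GGGNGTGG) or an SP motif (GGGGCGGG) on either strand.
Mttp: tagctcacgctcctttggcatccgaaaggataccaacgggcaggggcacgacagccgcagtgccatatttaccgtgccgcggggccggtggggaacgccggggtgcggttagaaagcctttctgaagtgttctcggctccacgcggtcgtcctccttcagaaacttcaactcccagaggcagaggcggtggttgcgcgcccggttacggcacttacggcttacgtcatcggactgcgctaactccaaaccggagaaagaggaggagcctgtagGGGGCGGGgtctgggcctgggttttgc
Cstf2: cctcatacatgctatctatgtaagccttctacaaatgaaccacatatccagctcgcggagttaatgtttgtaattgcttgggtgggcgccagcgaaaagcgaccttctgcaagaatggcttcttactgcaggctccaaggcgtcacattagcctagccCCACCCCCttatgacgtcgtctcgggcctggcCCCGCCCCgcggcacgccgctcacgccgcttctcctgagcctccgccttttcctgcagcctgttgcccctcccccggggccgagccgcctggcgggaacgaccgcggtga
Klf7: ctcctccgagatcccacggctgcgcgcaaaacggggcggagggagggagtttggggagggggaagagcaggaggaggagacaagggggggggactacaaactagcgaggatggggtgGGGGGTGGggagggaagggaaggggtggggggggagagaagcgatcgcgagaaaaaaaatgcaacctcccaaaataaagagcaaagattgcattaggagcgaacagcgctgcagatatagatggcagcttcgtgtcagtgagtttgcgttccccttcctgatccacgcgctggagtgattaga
Apool: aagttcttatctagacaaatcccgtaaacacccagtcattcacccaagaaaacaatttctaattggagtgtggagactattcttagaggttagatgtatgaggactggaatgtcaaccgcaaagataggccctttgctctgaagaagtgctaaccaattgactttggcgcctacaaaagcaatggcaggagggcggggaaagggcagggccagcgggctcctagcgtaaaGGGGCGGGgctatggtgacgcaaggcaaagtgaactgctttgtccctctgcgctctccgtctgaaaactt
The Mttp promoter (chr3:138143369-138143668, minus strand) belongs to the gene of the microsomal protein that loads lipid onto apolipoprotein B, and it held 1 SP match. The Cstf2 promoter (chrX:134058926-134059225, plus strand) belongs to the gene of an RNA cleavage factor and held 1 match of each motif. The Klf7 promoter (chr1:64121340-64121639, minus strand) belongs to another KLF family gene and held 1 KLF match. The Apool promoter (chrX:112311102-112311401, plus strand), of a mitochondrial inner membrane protein, held 1 SP match. The bins of these 4 promoters had 0 h values of 10.4, 10.3, 9.70 and 9.20 in that order, a bin score of 1 each, no entry in the 24 h list, and at least 1 iPSC H3K27ac peak each.

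The 0 h-only bins reached the absence of a 24 h value by 2 routes. The 24 h list did not hold 1454 of them at all, and it held the other 1299 without an H3K27ac value. A bin that is absent from the list was not shown to lack acetylation. The routes are kept apart below because the bins differed in level, in bin score, in neighbourhood and in iPSC acetylation.

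The 0 h H3K27ac values of the 0 h-only bins ran from 1.24 to 16.9, with a median of 3.44 and quartiles of 2.82 and 4.43, against a median of 4.41 in the 13882 KLF4-free bins valued at both times. The median was 3.87 for the absent bins and 3.11 for the listed bins. KLF4-bound bins valued only at 0 h had a median 0 h value of 3.86. The median was lower in 0 h-only bins than in bins valued at both times on 20 of 20 chromosomes. Since the rule used the 0 h and 24 h values, these medians and the decile shares that follow are a description. The share of KLF4-free bins under the rule was 34.0% in the lowest decile of the 0 h value and 5.95% in the highest. The listed bins made up most of this gradient, with 21.8% of the lowest decile and 0.721% of the highest, whereas the absent bins made up 12.1% and 5.23%. Around the threshold, the 5 lowest 0 h values among the 0 h-only bins were 1.24, 1.53, 1.55, 1.71 and 1.71, and the 5 lowest 24 h values among bins kept out because they had one were 1.46, 1.49, 1.57, 1.60 and 1.60. On the KLF4 side, the closest bins let in lay 2 bp (near Pum3), 5 bp (Tcf7l1) and 5 bp (Ppm1a) from a KLF4 peak, and the closest bins kept out overlapped one by 2 bp (Tsg101 and Uevld), 10 bp (near Sema3d) and 16 bp (near Grid1).

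**Figure D1:**
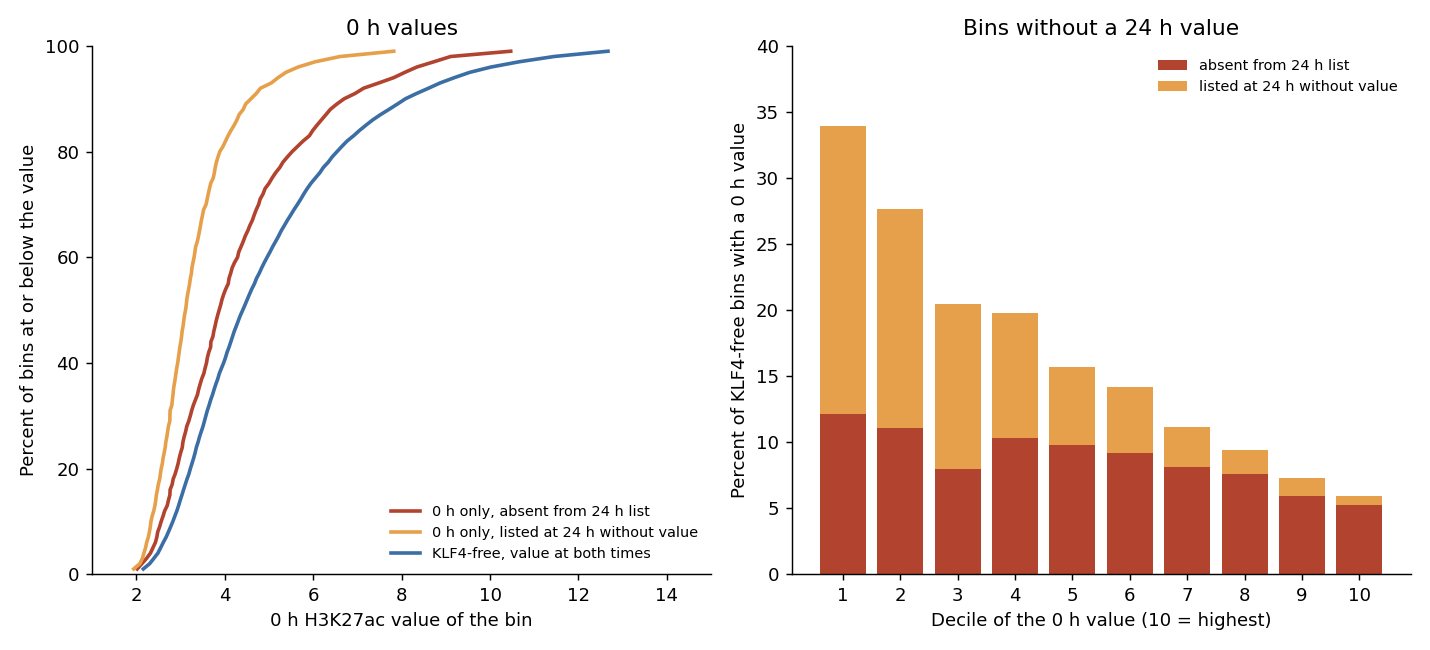
The left panel gives the cumulative percent of bins (vertical axis) at or below a 0 h H3K27ac value (horizontal axis) for the absent 0 h-only bins, the listed 0 h-only bins and the KLF4-free bins valued at both times, from the first to the 99th percentile. The right panel stacks the percent of KLF4-free 0 h-valued bins that were absent or listed without a value at 24 h in each decile of the 0 h value, which sums to 34.0% in the lowest decile and 5.95% in the highest.

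The bin score is the whole number in the fourth column of the ESC lists, whose meaning the lists do not state, and it did not enter the rule. Its 0 h median was 2 in the 0 h-only bins (mean 2.84), against 4 in the KLF4-free bins valued at both times (mean 5.13). The absent bins had a median of 1, and 908 of 1454 of them (62.4%) had the lowest score of 1. The listed bins had a median of 4, and 13.0% of them had a score of 1, against 11.2% of bins valued at both times. The scores of 1 thus lay mostly in the absent bins. The listed bins still scored somewhat lower than bins valued at both times, with a mean of 4.17. A score of 5 or more was found in 38.0% of them, against 49.1%, a difference of -11.2 points (-13.9 to -8.39). KLF4-bound bins valued only at 0 h had a median of 2, and 40.4% of them had a score of 1, against 39.1% of the 0 h-only bins.

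Absence from the 24 h list followed the 0 h bin score whether or not a bin was acetylated. With a score of 1, 34.5% (exact 95% interval 32.7 to 36.3, for counting error only) of KLF4-free bins with a 0 h value were absent at 24 h, against 35.6% (34.7 to 36.5) of KLF4-free bins without one. With a score of 2 the shares were 14.1% (12.7 to 15.5) with a value and 12.0% (11.1 to 13.0) without, with a score of 3 they were 5.76% (4.82 to 6.81) and 3.34% (2.64 to 4.16), and with a score of 4 they were 2.21% (1.62 to 2.94) and 1.25% (0.684 to 2.08). At scores of 8 or more, 7 of 2955 bins with a value and 0 of 136 without one were absent. Bins that did hold a KLF4 peak and a 0 h value were absent more often at low scores, at 41.0% (38.2 to 43.9) with a score of 1 and 18% (15.7 to 20.4) with a score of 2. The part of list membership in the absent 0 h-only bins, as against a loss of acetylation, was not tested.

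**Figure D2:**
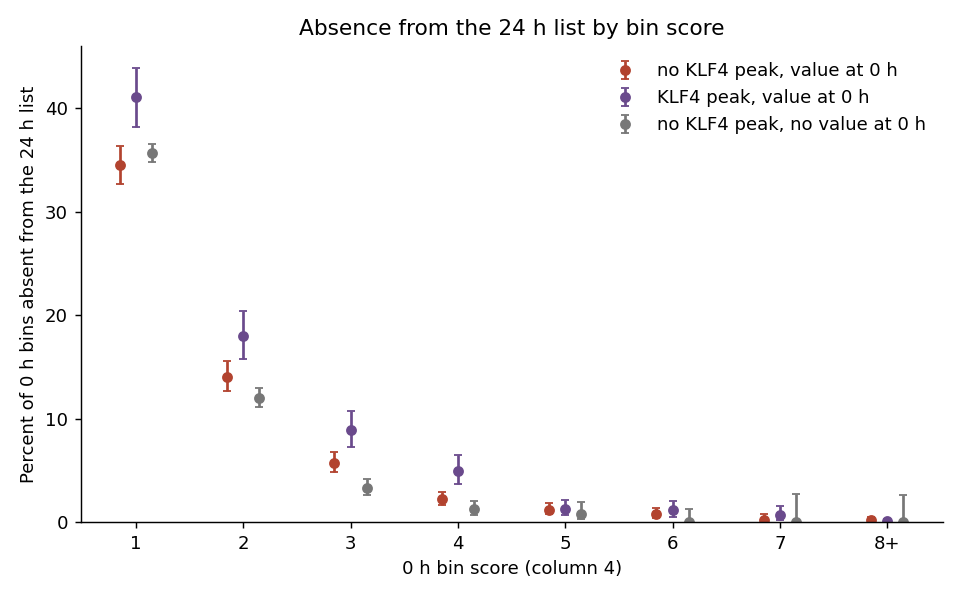
The percent of 0 h bins that were absent from the 24 h list (vertical axis) is plotted against the 0 h bin score (horizontal axis, 8+ for 8 or more) for KLF4-free bins with a 0 h value, KLF4-holding bins with a 0 h value and KLF4-free bins without a value, with exact 95% intervals. At a score of 1 the points lie at 34.5%, 41.0% and 35.6%, and all fall towards 0 at high scores.

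Among bins listed at both times, the shares with a value at 1 time only were close in both directions where no KLF4 peak was found. Of 15181 such KLF4-free bins with a 0 h value, 1299 (8.56%, 8.12 to 9.01) had no 24 h value, and of 15210 with a 24 h value, 1328 (8.73%, 8.29 to 9.19) had no 0 h value. In KLF4-bound bins listed at both times, 465 of 9322 (4.99%, 4.56 to 5.45) had no 24 h value and 166 of 9023 (1.84%, 1.57 to 2.14) had no 0 h value. The absent route was less even, with 1454 KLF4-free bins valued at 0 h and missing from the 24 h list, and 1105 valued at 24 h and missing from the 0 h list. In KLF4-bound bins these counts were 855 and 273. All of these counts rest on the same values as the rule and are given as a description.

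**Figure D3:**
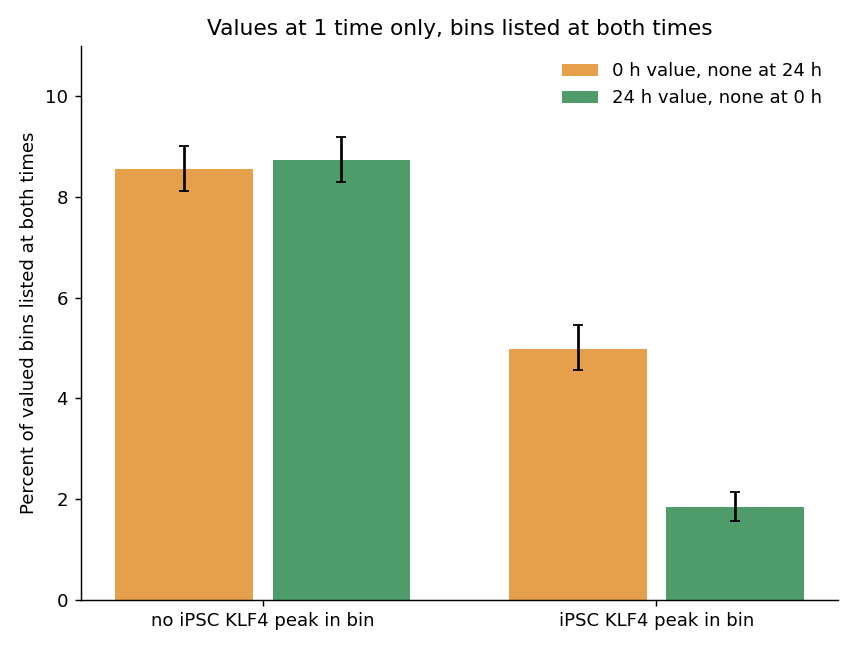
Bars give the percent of valued bins listed at both times (vertical axis) that had a value at 0 h and none at 24 h, or at 24 h and none at 0 h, for bins without and with an iPSC KLF4 peak, with exact 95% intervals. Without KLF4 the bars stand at 8.56% and 8.73%, and with KLF4 at 4.99% and 1.84%.

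The same 2 routes were present in the opposite direction, in KLF4-free bins valued only at 24 h. The listed 0 h-only bins had a median value of 3.11 and a median bin score of 4 at 0 h, against 2.94 and 4 at 24 h for the 24 h-only bins that the 0 h list held without a value. The absent 0 h-only bins had a median value of 3.87 and a median score of 1 at 0 h, with a score of 1 in 62.4% of bins, against 3.48, 1 and 62.4% at 24 h for the 24 h-only bins absent from the 0 h list.

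Bin scores within the listed 0 h-only bins were lower at 24 h. The mean score was 2.54 at 24 h, against 4.17 at 0 h, with 899 of 1299 bins lower (69.2%), 328 equal and 72 higher (5.54%). In KLF4-free bins valued at both times the mean was 4.82 at 24 h, against 5.13 at 0 h, with 40.5% lower and 26.2% higher. Because the 0 h and 24 h states chose these bins, the difference is a description. The highest 0 h score, 17, belonged to a bin 14450 bp from Scd1, the gene of a fatty acid desaturase, and its score was 3 at 24 h. The next were a bin of Gnal, a G protein alpha subunit gene, with 6 at 24 h and 16 at 0 h, a bin at Pcsk1n and Eras, a Ras-like gene of ESCs, with 6 and 15, and a bin of Got1l1 with 11 and 15. The bins of Mark2, a polarity kinase, near Haao, near Tgif1, a repressor of the TGF-beta pathway, and near Arhgef37 had a 0 h score of 14, and those of Stpg1 and Lrp5 had 13. All 10 were in the 24 h list, and none had a higher score there than at 0 h.

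iPSC H3K27ac did not enter the rule, and it was found in a smaller share of the 0 h-only bins. An iPSC H3K27ac peak lay in 951 of 2753 of them (34.5%, 32.8 to 36.4), against 9751 of 13882 KLF4-free bins valued at both times (70.2%, 69.5 to 71.0). The difference was -35.7 percentage points (Newcombe 95% interval -37.6 to -33.7, for counting error only). It was negative on 20 of 20 chromosomes, with shares of 24.8% (chromosome 16) to 43.8% (chromosome 2) in 0 h-only bins and 62.3% (chromosome 14) to 74.5% (chromosome 4) in bins valued at both times. KLF4-bound bins valued only at 0 h held an iPSC peak in 66.0%, and KLF4-free bins valued only at 24 h in 23.9%, and the share of 0 h-only bins was 10.6 points above the 24 h-only one (8.16 to 13.1). The p-value of a test over replicates cannot be given, because bins of 1 list are not replicates.

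**Figure D4:**
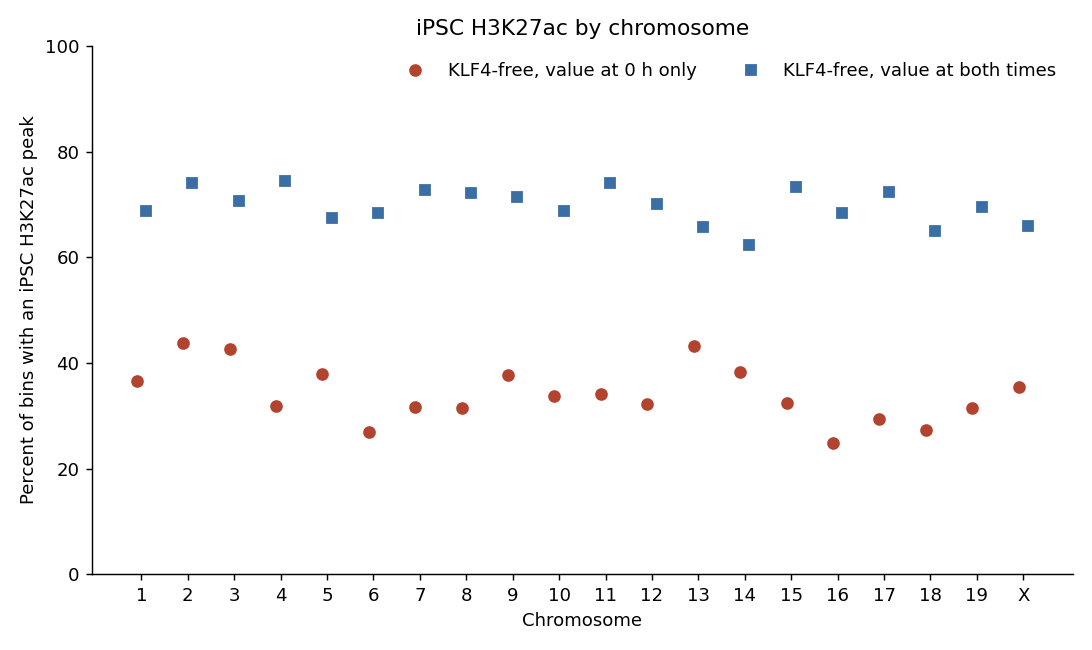
The percent of bins with an iPSC H3K27ac peak (vertical axis) is plotted for each chromosome (horizontal axis) for the KLF4-free 0 h-only bins and for the KLF4-free bins valued at both times. The 0 h-only bins lie between 24.8% and 43.8% and the bins valued at both times between 62.3% and 74.5%.

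The 2 routes differed in iPSC acetylation by 30.0 percentage points (26.6 to 33.3): 708 of 1454 absent bins (48.7%, 46.1 to 51.3) and 243 of 1299 listed bins (18.7%, 16.6 to 20.9) held a peak. The 24 h-only bins showed the same order, with 37.4% of those absent from the 0 h list and 12.7% of those listed there. Part of the difference from bins valued at both times went with the lower 0 h values. When the bins valued at both times were weighted to the 0 h value deciles of the 0 h-only bins, the difference was -25.3 points, and weighted to deciles and bin scores together, a choice made after seeing the data, it was -21.9 points. With that weighting the difference was -34.8 points for the listed bins and -10.3 points for the absent bins. Where a bin did hold an iPSC peak, the peaks covered a median of 434 bp of 0 h-only bins (512 bp of absent bins and 298 bp of listed bins), against 868 bp of bins valued at both times.

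The listed bins held few iPSC peaks in every decile of the 0 h value. The share of absent bins with an iPSC peak was 25.7% in the lowest decile of the 0 h value and 77.0% in the highest, and that of bins valued at both times was 34.9% and 85.1%. The share of listed bins was 15.4% in the lowest decile and 8.33% in the highest. In the top 3 deciles together, 6 of 64 listed bins (9.38%, 3.52 to 19.3) held an iPSC peak, against 219 of 312 absent bins (70.2%, 64.8 to 75.2) and 3930 of 4615 bins valued at both times (85.2%, 84.1 to 86.2). The grouping of these deciles was chosen after the values were seen. Of these 64 listed bins, 16 (25%) lay on the X chromosome and 42 (65.6%) touched a bin with a 24 h value. In the same deciles, 10.9% of absent bins and 6.87% of bins valued at both times lay on X. A bin with a 24 h value was touched by 30.8% of those absent bins and 86.3% of those valued at both times. The highest of the 64 listed bins was 6843 bp from Syap1 on the X chromosome (0 h value 12.4, bin score 4 at both times, no iPSC peak). It was followed by a bin 49668 bp from Diaph2 on the X chromosome (11.6, bin score 1 at 24 h and 6 at 0 h) and a bin on chromosome 1, 92048 bp from Maip1 (10.4), which was the one among these 3 with an iPSC peak, of 130 bp. The bin at Vegfd, the gene of a vascular growth factor ligand, had a 0 h value of 9.44, a bin score of 4 at 24 h and 6 at 0 h, and no iPSC peak.

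**Figure D5:**
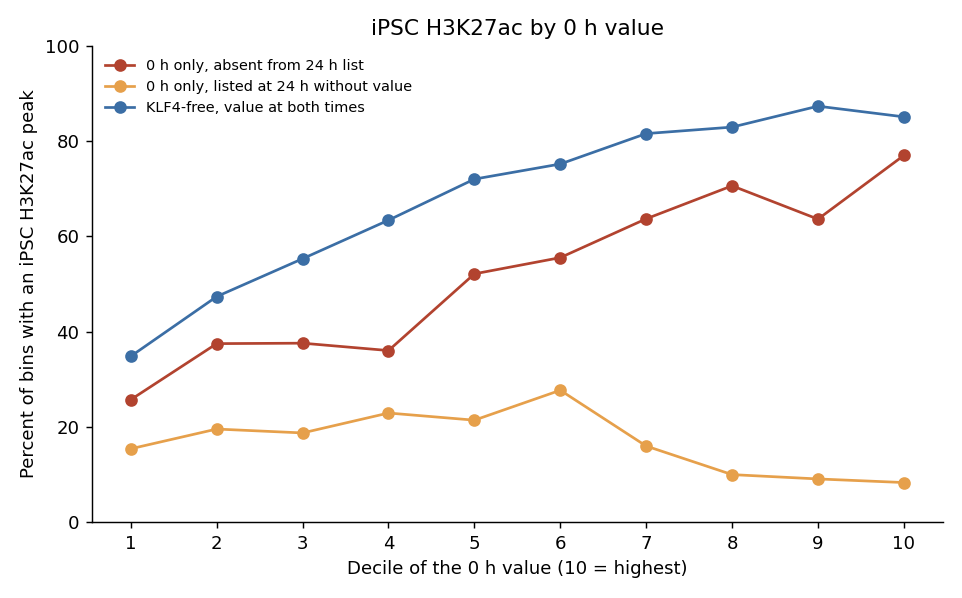
The percent of bins with an iPSC H3K27ac peak (vertical axis) is plotted by decile of the 0 h value (horizontal axis) for the absent 0 h-only bins, the listed 0 h-only bins and the KLF4-free bins valued at both times. The absent bins run from 25.7% to 77.0% and the bins valued at both times from 34.9% to 85.1%, while the listed bins stay between 8.33% and 27.7%, with 12 listed bins in the highest decile.

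The 0 h-only bins lay more often outside genes than the bins valued at both times. Gene starts are known here only for the 17274 of 21631 protein-coding genes in the RefSeq promoter table, and a bin with the start of another gene counts as lying in a gene. The 0 h-only bins held such a start in 389 cases (14.1%), otherwise lay in a gene in 1377 (50.0%) and outside genes in 987 (35.9%), against 18.8%, 55.9% and 25.4% of KLF4-free bins valued at both times. The share outside genes was 36.2% in KLF4-bound bins valued only at 0 h, so it was not particular to bins without KLF4. It was 26.4% in KLF4-free bins valued only at 24 h. A gene end within 2 kb was found for 897 of them (32.6%, 30.8 to 34.4), against 40.6% (39.8 to 41.4) of bins valued at both times. The difference was -8.02 points (-9.93 to -6.07), was negative on 17 of 20 chromosomes, and was -4.68 points after weighting to the 0 h value deciles. KLF4-bound bins valued only at 0 h were near a gene end in 44.5% and KLF4-free bins valued only at 24 h in 27.9%. Gene starts were held by 18.1% of the absent bins and 9.70% of the listed bins, a difference of 8.39 points (5.82 to 10.9).

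The median gap to the nearest iPSC KLF4 peak was 17071 bp for 0 h-only bins, with 25438 bp for the absent bins and 11937 bp for the listed bins, against 13604 bp for KLF4-free bins valued at both times and 22366 bp for those valued only at 24 h. A KLF4 peak lay in a touching bin for 36.0% of 0 h-only bins (34.2 to 37.8), against 41.9% of bins valued at both times (41.1 to 42.8). The share was 43.6% in the listed bins and 29.1% in the absent bins. By this measure the listed bins were about level with bins valued at both times, with a difference of 1.72 points (-1.07 to 4.56). Within 1 kb they were not. An iPSC KLF4 peak lay that near to 5.16% of the listed bins, against 8.15% of bins valued at both times, a difference of -2.99 points (-4.16 to -1.58). For the absent bins the share within 1 kb was 7.57%.

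Most 0 h-only bins touched no other 0 h-only bin. They formed 2367 single bins, 181 runs of 2 and 8 runs of 3 touching bins. A touching bin with a 0 h value was found for 62.5% of the 0 h-only bins (60.7 to 64.4), against 80.3% of bins valued at both times. No touching bin had a value at either time for 50.0% of the absent bins (47.4 to 52.6) and 18.4% of the listed bins (16.3 to 20.6), against 16.6% of bins valued at both times (16.0 to 17.2). A touching bin with a 24 h value was found for 72.7% of the listed bins, 28.1% of the absent bins and 80.0% of bins valued at both times. Of 1282 0 h-only bins touching a bin valued at both times, 956 (74.6%) had a lower 0 h value than the highest such neighbour, with medians of 3.30 for the 0 h-only bins and 5.15 for the neighbours. This is a description only. The highest of up to 2 neighbours was taken, KLF4-bound ones included, which by itself favours the neighbour. The 0 h-only bins also had lower 0 h values in general. A value of 24 h over 0 h can be given for the neighbours. With the median over all bins that had both values subtracted, the log2 value of 24 h over 0 h had a median of -0.01 (quartiles -0.21 and 0.21) in the 883 KLF4-free neighbours and 0.07 (-0.12 and 0.27) in the other 12999 KLF4-free bins valued at both times. The subtracted median was -0.23 (quartiles -0.42 and -0.03, 22739 bins), so most bins with both values had a lower one at 24 h. The normalization of these values is not stated.

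The 0 h-only bins were spread over all chromosomes in the lists. They made up 13.5% (chromosome 9) to 20.3% (chromosome 3) of the KLF4-free 0 h-valued bins of a chromosome, and they outnumbered KLF4-free 24 h-only bins on 14 of 20. Values on the X chromosome were higher in both classes, with medians of 6.14 in 82 0 h-only bins on X and 3.41 on autosomes, and of 7.13 and 4.34 in bins valued at both times. Of the 39 0 h-only bins with a value of 9 or more, 12 lay on X.

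The highest 0 h value, 16.9, was found on X in a bin (chrX:122290001-122300000) 94560 bp from Nap1l3. It was followed by a pair of touching bins in Skint4 (chr4:112150001-112160000 and chr4:112160001-112170000) that shared the value 16.6 and by a bin at Ubqln2 (chrX:153490001-153500000), the gene of a protein that carries ubiquitinated cargo to the proteasome, with 13.9. All of these bins were absent from the 24 h list, with a bin score of 1, or 2 at Ubqln2, and each held an iPSC H3K27ac peak. Of the 10 highest when touching bins with an equal value count as 1, 4 lay on X and 7 lay outside genes by more than 10 kb. The gene-poor ones included a bin 330337 bp from Epm2a (value 11.9), one 311135 bp from B020011L13Rik (11.8), one 1025226 bp from Cntn5 (11.7) and one 812342 bp from Phf3 (11.6). Each of these 4 lay within 2 kb of an iPSC KLF4 peak, at 1754, 1896, 793 and 982 bp, and was absent from the 24 h list. Another, 17563 bp from Zfr, had a value of 11.7 and lay 4838 bp from a KLF4 peak. The rest of the 10 lay farther from one. The gap was 803173 bp for the bin near Nap1l3, 57197 bp for the first Skint4 bin and 122868 bp at Ubqln2. It was 225954 bp for the bin near Diaph2 and 7619 bp for that near Syap1. Over all 0 h-only bins the median gap was 17071 bp.

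Among bins at a gene end, those of Skint4, Ubqln2, Mttp with Trmt10a (10.4), Cstf2 (10.3) and Klf7 (9.70) had the highest 0 h values. They were followed by Fstl4 (9.66), Vegfd (9.44), Dync1li2 with Terb1 (9.39), Apool (9.20) and Prkg2 (8.66), a cGMP-dependent kinase gene. All of these bins were absent from the 24 h list except that of Vegfd. The bins of Fstl4 and Vegfd held no iPSC H3K27ac peak, and the others held 1 or 2. Dync1li2, a dynein subunit gene, and Prkg2 lay 269 and 895 bp from an iPSC KLF4 peak, whereas the bin of Apool lay 846199 bp from one.

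A 0 h-only bin touched 2474 protein-coding genes or the 10 kb on either side of them, which is 20.2% of the 12259 genes with a 0 h-valued bin there. Of these genes, 2136 had 1 such bin and 290 had 2. Tenm4, a teneurin cell-adhesion gene, had the most, with 6 of its 11 0 h-valued bins, values of 2.41 to 3.27 and no iPSC H3K27ac peak. Luc7l2, which encodes a protein associated with the U1 splicing particle, had 5 of 7, all listed at 24 h, with values of 2.28 to 3.45. Rnf2, the gene of the RING1B ubiquitin ligase of Polycomb complex 1, had 4 of 5, with values of 4.39, 3.06, 7.14 and 2.79 in order of position. The bin with 2.79 lay outside the gene, within 10 kb of it. All 4 were absent from the 24 h list with bin scores of 1 or 2, the remaining bin was a KLF4-bound 0 h-only bin, and no bin around Rnf2 had a 24 h value. Fam189a1, Pitpnc1, Kif6 and Nav1 had 4 each, and Zfp976, Dmd and Ctnnd1, the gene of p120-catenin, had 3 each. These counts are not corrected for gene length, and the span of Dmd, the dystrophin gene, covered 242 bins.

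The 8 runs of 3 bins lay at Rnf2, Cabs1, D16Ertd472e, Luc7l2, Pcnt, the gene of a centrosome scaffold, Tenm4, Lexm with Ttc22, and 29668 bp from Diaph2 on X. Values within them were highest in the run near Diaph2 (3.68 to 11.6) and at Rnf2 (3.06 to 7.14), and lowest at Lexm and Ttc22 (2.21 to 2.61). At Luc7l2 and Pcnt all 3 bins were listed at 24 h, and at Rnf2, Cabs1 and D16Ertd472e all 3 were absent.

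Gene lists for the cell states and pathways of this tissue are given as counts of genes with a 0 h-only bin among genes with a 0 h-valued bin, to be read against the 20.2% of all such genes. The naive pluripotency genes, all 20 of which had a 0 h-valued bin, had 2 with a 0 h-only bin (10.0%). These were Nr0b1 (value 2.76), a nuclear receptor gene, and Sall4 (2.69), a zinc-finger gene of the core network, both still listed at 24 h with equal scores. Klf2, Klf4 and Klf5 had none. None of the 12 LIF and STAT3 genes and none of the 5 neuroectoderm genes had one. Primed or formative genes had 1 of 11 (Dnmt3a, 3.47), trophectoderm genes 1 of 8 (Tfap2a, 2.53), and primitive endoderm genes 1 of 5, the laminin gene Lama1, with 3 bins of 3.06, 3.34 and 3.51. Around Dnmt3a, 1 bin had a value at each time, against 4 at 0 h and 3 at 24 h around Tfap2a and 5 and 2 around Lama1. Fibroblast genes, which would report the feeder cells, had a 0 h-valued bin in 7 of 23 and a 0 h-only bin in 1, the fibronectin gene Fn1, with 2 bins of 3.78 and 2.33. Of the other genes of that list, Loxl1 (27.2), Col1a1 (6.49), S100a4 (6.31), Col3a1 (6.15), Pdgfrb (3.79) and Vim (2.98) had 0 h-valued bins with the summed values given, against 46.3 at Fn1, and the remaining 16 of 23, among them Col1a2, Thy1, Postn and Dcn, had none. The sums are not levels per bin. They cover 9 bins at Fn1, 3 at Loxl1, 2 each at Col1a1 and S100a4, and 1 each at Col3a1, Pdgfrb and Vim. The part of feeder cells in the bins of Fn1 was not tested.

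Mesendoderm genes had the highest share, with 4 of 6 (66.7%), in a list too short to rank. Lhx1 (4.18) was absent from the 24 h list with a score of 1, and had 2 iPSC H3K27ac peaks in the bin. Fgf8 (3.45), an FGF ligand gene, and Foxh1 (2.64), the gene of a SMAD partner in Nodal signalling, were listed at 24 h. Wnt3 (2.12), a Wnt ligand gene of gastrulation, was absent there. Wnt and beta-catenin genes had 6 of 18 (33.3%), with the co-receptor gene Lrp5 (2 bins, 2.30 and 4.08), the destruction complex genes Apc (2 bins, 2.41 and 2.60) and Gsk3b (3.80), the DNA-binding effectors Tcf7l1 (2 bins, 2.50 and 2.30) and Tcf7l2 (4.14), and Wnt3. The Gsk3b bin scored 2 at 24 h, against 8 at 0 h, and the second Lrp5 bin 5, against 13. Of the 25 genes of this list, 8 had a KLF4-free bin valued only at 24 h. The count was also 8 among the 29 chromatin regulators and 8 among the 18 architecture genes. Such 24 h-only counts are given without a share over all genes, so nothing is read from them.

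TGF-beta, Nodal and BMP genes had 6 of 17 (35.3%). The inhibitor gene Lefty2 had the highest value, 7.87, in a bin absent at 24 h and 1299 bp from an iPSC KLF4 peak. Among receptor genes, Tgfbr2 had 6.21 in an absent bin and Acvr1b 2.48 in a listed bin with a score of 3 at 24 h and 9 at 0 h. The target gene Id1 had 3.61, and the signal mediators Smad3 and Smad6 had 2.24 and 2.23. Valued bins in or within 10 kb of the gene numbered 3 at 0 h and 2 at 24 h for Lefty2, and 2 and 0 for Id1. They numbered 4 and 3 for Smad3, and were equal at both times for Tgfbr2 (1), Acvr1b (3) and Smad6 (6). Of the 23 genes of this list, 3 had a KLF4-free 24 h-only bin. FGF and ERK genes had 3 of 21 (14.3%), among them the adaptor Grb2 (3.84) and the kinase Mapk3 (2.76), both listed at 24 h. A KLF4-free 24 h-only bin was found for 7 of the 25 genes of that list, and for 7 of the 21 epithelial genes. These 24 h-only counts are over whole lists, not over genes with a 0 h-valued bin, and are given for some lists only. No share over all genes stands beside them, so nothing is read from them. Hippo and YAP genes had 2 of 16 (12.5%), Vgll4 with 2 bins that shared the value 2.56 and Tead1 with 4.46. Around Tead1, 15 bins had a 0 h value and 17 a 24 h value, against 6 and 5 around Vgll4.

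KLF and SP family genes had 6 of 20 (30.0%), none of them a targeted gene. Klf7 had 9.70, Klf8 4.07, Klf12 3.89, Klf16 3.14, Klf10 3.08 and Sp6 2.44. The bins of Klf7, Klf12 and Klf10 were absent from the 24 h list, and those of Klf8, Klf16 and Sp6 were listed there. In or within 10 kb of Klf7, 1 bin had a 0 h value and 2 others, both KLF4-free 24 h-only bins, had a 24 h value. The valued bins numbered 7 at 0 h and 5 at 24 h for Klf8, and 2 and 1 for Klf12. They numbered 3 and 2 for Klf16, and 4 and 3 for Klf10 and for Sp6. Chromatin regulators had 4 of 27 (14.8%), Rnf2, the H3K4 demethylase gene Kdm5b (4.26), Dnmt3a and the remodeller gene Smarca4 (2.91). Architecture genes had 5 of 18 (27.8%), among them the cohesin release factor Wapl (6.20), the Mediator genes Med13 (3.51) and Med13l (2.56), and Pds5b (2.55). Epithelial genes had 5 of 18 (27.8%), among them the desmosome genes Dsg2 (3.84) and Dsp (2.36), the laminin gene Lamc1 (3.36) and Cdh1 (2.42), which encodes E-cadherin. DNA damage and p53 genes had 1 of 18 (5.56%), Ddit4 (5.06), and glycolysis genes 2 of 16 (12.5%), the glucose transporter gene Slc2a1 (3.48) and Aldoa (3.12). Of the 18 lists, 6 lay above 20.2% and 12 below it, no list was tested, and nothing particular to a list is read from these counts.

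Promoters in the 0 h-only bins numbered 513, of 433 genes in 389 bins, against 3463 promoters in KLF4-free bins valued at both times. The median GC content was 58.0% in both. The median ratio of observed to expected CpG was 0.698 in 0 h-only bins, with 0.735 in the absent bins and 0.567 in the listed bins, against 0.761 in bins valued at both times, 0.567 in 24 h-only bins and 0.574 over all 21045 promoters. The KLF motif GGGNGTGG, searched like all motifs on both strands, was in 19.5% of promoters in 0 h-only bins (16.2 to 23.2), against 16.4% in bins valued at both times (15.2 to 17.7) and 19.6% of all promoters. The listed bins held it in 42 of 162 promoters (25.9%, 19.4 to 33.4) and the absent bins in 58 of 351 (16.5%, 12.8 to 20.8). Promoters in KLF4-bound 0 h-only bins held it in 31.1% (26.9 to 35.6). The SP motif GGGGCGGG, which cannot share its 8 bases with the KLF motif, was in 19.9% (16.5 to 23.6) in 0 h-only bins, against 23.4% (22.0 to 24.8) in bins valued at both times, 36.2% in KLF4-bound 0 h-only bins and 22.3% of all promoters.

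Of the other motifs searched, the YY1 motif AAGATGGCG was in 2.34% (1.21 to 4.05) of promoters in 0 h-only bins, against 4.07% (3.44 to 4.78) in bins valued at both times and 1.84% of all. The NRF1 motif GCGCATGCG was in 2.92%, against 4.50% and 2.37% of all, and the ETS motif CCGGAAGT in 8.19%, against 10.2% and 5.20% of all. The ETS motif was in 5 of 162 promoters of the listed bins (3.09%, 1.01 to 7.06) and 37 of 351 of the absent bins (10.5%, 7.53 to 14.2). The CACCC box CCACACCC, which is one form of the KLF motif on the opposite strand, was in 3.12%, against 2.22% and 3.64% of all. The octamer ATGCAAAT was in 1.95%, against 1.33% and 1.68% of all, and the ESRRB motif AAGGTCA in 4.29%, against 3.96% and 4.06% of all. The E-box CACGTG was in 10.1%, against 9.82% and 7.91% of all, and the TATA box TATAAA in 8.77%, against 7.80% and 12.7% of all. A match is a description of the letters and was not shown to be a bound site.

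MicroRNA hairpins of the RefSeq table numbered 24 in 21 of the 0 h-only bins (0.763%), against 160 in 134 of the bins valued at both times (0.965%). One bin (chr13:48530001-48540000) held 3 hairpins of the let-7 family, which hold back stem cell genes such as Lin28a and rise on differentiation, and these are shown because they share a seed (bases 2 to 8, in capitals). They were picked after the values were seen.
mmu-let-7a-5p: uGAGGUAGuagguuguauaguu
mmu-let-7d-5p: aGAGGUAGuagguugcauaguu
mmu-let-7f-5p: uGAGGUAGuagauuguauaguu
This bin had a 0 h value of 2.55, no iPSC H3K27ac peak, and a bin score of 2 at 24 h and 7 at 0 h. Other hairpins in 0 h-only bins were those of Mir34a (value 3.13), a target of p53, in a bin listed at 24 h, Mir199a-1 (4.26), also listed, Mir423 (5.06), absent at 24 h, and Mir194-1 with Mir215 (5.41), in 1 bin absent at 24 h. The remaining hairpins had values of 2.27 to 4.40.

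The 5 columns between the bin score and the value hold marks of 0, 1 or 2 whose meaning the lists do not state. A mark in column 7 was on 336 of the 0 h-only bins (12.2%), with 15.5% of the absent and 8.55% of the listed bins, against 14.5% of bins valued at both times. Column 5 marked 1.82% against 3.13%, column 6 marked 3 bins (0.109%) against 0.958%, and column 8 marked 3.23% against 3.51%. Column 9 marked 0 of 2753 of the 0 h-only bins (upper limit of the exact interval 0.134%) and 0.411% of bins valued at both times.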

How the data were processed

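The members and gene lists were chosen with earlier results of these data known. The submitters' processing notes name MACS2, Bowtie2, bedtools and SAMtools with mm10, per the labels. Versions, and how replicates were combined, are not given in the sources used here. The authors deposited 1 list per ChIP group. The deposited ESC lists give 10 kb bins with a bin score, 5 marks of 0, 1 or 2 (other values) and an H3K27ac signal of unstated normalization. A bin without signal holds 2.23e-308, and a value above 1e-300 counted as one. The deposited iPSC lists give peak positions only. Overlap was 1 bp or more. Shares have exact (Clopper-Pearson) and differences Newcombe intervals at 95%, for counting error only, with no p-value. Neighbouring bins can share a value, so bins are not independent. Deciles were cut over the KLF4-free 0 h-valued bins. Bins named were the 10 highest by value and by score (1 bin per run of touching bins with an equal value), run length, count per gene and gene end (1 gene end per bin), up to 4 genes per list (more where a list is given whole), and those nearest the thresholds. Some items these rules name are not reported here. Promoters of 17274 of 21631 protein-coding genes were in the RefSeq table. Python 3.11.15, pandas 2.3.3, numpy 2.4.6 and scipy 1.17.1 were used. The intervals were tested on simulated data with independent bins only. Their coverage where neighbouring bins share a value was not tested.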

Additional observations from a re-analysis of the deposited data

How the results depend on the processing

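No paired analysis was possible because each group has 1 deposited list, with no column per replicate. For the same reason no library could be left out. Depth is unknown and was not tested. No alternative turned a direction. The number of 0 h-only bins was 2753, and 1299 with only bins listed at 24 h, 1454 with only absent bins, 1401 without those touching a bin with a 24 h value, 1763 without a KLF4 peak within 10 kb, and 590 with a 0 h value at or above the median of all valued bins. The difference in iPSC H3K27ac share, -35.7 points, was -51.5, -21.5, -29.8, -32.9 and -27.5 points under those 5 settings. It was -25.3 points when weighted to the deciles. In weightings chosen after seeing the data, it was -29.7 points with bin scores, -21.9 with both, and -10.3 for absent bins with both. The difference near gene ends, -8.02 points, was -10.4 for listed and -5.94 for absent bins, -4.68 weighted to deciles, and in added weightings -5.91 with deciles and scores and -5.25 for listed bins with both. The median 0 h bin score, 2, was 4 for listed bins and 1 for absent bins, for bins touching no 24 h value and for high values. The difference in mean score, -2.29, was -0.96 for bins listed at both times and -1.81 weighted to deciles. The rate of 16.5% was 8.57% for high values, 17.9% without KLF4 within 10 kb and 8.56% for bins listed at 24 h. Among the other 21 alternatives, the number of bins without a KLF4 peak within 1 kb was 2576, the median bin score was 2 in both settings of KLF4 distance, and the remaining 18 stayed within the interval of the main value.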
